A study of Drosophila melanogaster with 2 samples.

Results

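The genes examined were 10 that license replication origins: the helicase genes Mcm2, Mcm3, dpa, Mcm5, Mcm6 and Mcm7, the origin recognition genes Orc1 and Orc2, the loader gene dup, and geminin, which encodes the inhibitor of that loader. They were taken by name from the 13945 protein-coding genes on the arms of the Drosophila melanogaster genome. Peaks came from chromatin immunoprecipitation and sequencing (ChIP-seq) with an anti-GFP antibody. The chromatin was from whole embryos, 0 to 4 h old, of the CG2129-GFP strain, which carries CG2129 fused to eGFP, a green fluorescent protein. The 2 samples are biological replicates of this 1 group, so no condition was compared. Whether untagged CG2129 was also present is not stated in the labels, and the control experiment they name was not analysed here. A gene was called bound where the summit of a peak lay within 500 bp of one of its transcription start sites (TSSs). Coordinates are of the dm6 assembly and counted from 1.

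Licensing makes an origin ready to be copied once in each cell cycle. The origin recognition complex marks the DNA, and with its help the loader encoded by dup (Cdt1 in other animals) places the Mcm helicase ring there in an inactive form. Geminin binds the loader after DNA synthesis has begun and so prevents a further loading in the same cycle. In the fly embryo the earliest nuclear cycles alternate between DNA synthesis and mitosis with hardly any gap phase, and they run on proteins and RNA that the mother supplied.

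The sequences at the summits of the bound helicase genes Mcm5 and Mcm6 are shown first, with Orc2 and Mcm7, which were not bound, and Orc5 and mus101, bound genes of the same pathway, for comparison. Each is read on the gene's own strand, which is the plus strand for all of them, from the RefSeq copy of Release 6 (the dm6 sequence). Each run reaches up to 100 bp to either side of the summit and was shortened where a gene body begins. Capitals mark TATCGAT on either strand, most of the palindrome TATCGATA, which is called the DRE and is the binding site of DREF, a factor known for genes of DNA replication. Orc5 and mus101 are among the 6 of 10 bound other genes of the pathway with this palindrome within 100 bp of the summit. The bound geminin, not shown, had neither TATCGATA nor TATCGAT there. The Mcm6 site lies in the 5' UTR of the neighbouring gene CG3198 and is given with 10 bases on each side.
Mcm5, chr3R:10788290-10788490: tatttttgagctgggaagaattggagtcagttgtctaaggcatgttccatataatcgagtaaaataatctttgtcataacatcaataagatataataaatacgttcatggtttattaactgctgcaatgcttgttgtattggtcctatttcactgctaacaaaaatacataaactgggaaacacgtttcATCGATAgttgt
Mcm6, site, chrX:6673942-6673968: attcgcgtggTATCGATtatttcggaa
Mcm6, chrX:6673974-6674084: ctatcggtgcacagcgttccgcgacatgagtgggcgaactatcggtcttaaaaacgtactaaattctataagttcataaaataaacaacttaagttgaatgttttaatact
Orc2, chr3R:13964631-13964831: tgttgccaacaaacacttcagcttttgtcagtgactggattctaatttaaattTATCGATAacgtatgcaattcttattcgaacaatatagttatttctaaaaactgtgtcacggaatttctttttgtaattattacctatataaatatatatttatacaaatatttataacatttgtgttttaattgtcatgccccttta
Mcm7, chr3L:8891342-8891542: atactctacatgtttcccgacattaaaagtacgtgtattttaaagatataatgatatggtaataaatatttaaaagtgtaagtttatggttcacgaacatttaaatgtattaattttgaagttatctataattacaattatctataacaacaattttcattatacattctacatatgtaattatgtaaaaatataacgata
Orc5, chr2L:13829742-13829836: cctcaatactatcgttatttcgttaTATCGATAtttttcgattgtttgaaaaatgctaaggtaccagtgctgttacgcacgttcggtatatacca
mus101, chrX:13721990-13722190: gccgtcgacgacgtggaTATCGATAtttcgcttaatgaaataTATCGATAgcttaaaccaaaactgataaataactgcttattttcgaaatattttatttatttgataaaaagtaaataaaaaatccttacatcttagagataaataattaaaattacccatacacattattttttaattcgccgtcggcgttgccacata

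Mcm5, Mcm6 and geminin were the bound genes, 3 of 10, in the authors' pooled thresholded list of 2067 peaks. Of all protein-coding genes on the arms 17.3% were bound, a share that would give 1.73 of 10 genes. The count of members is too small to set them apart from that share. Bound and unbound genes stood side by side in the same complex: of the 6 helicase genes 2 were bound, and of the 2 origin recognition genes none. By peak signal, the value of the authors' peak caller, the bound genes ran from 216 at Mcm5 over 150.2 at geminin to 54.8 at Mcm6. The median of the list was 77.6, so Mcm5 and geminin were above it and Mcm6 below it. No deposited file gives the scale of the signal, and signals are therefore compared only within a list.

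**Figure D1:**
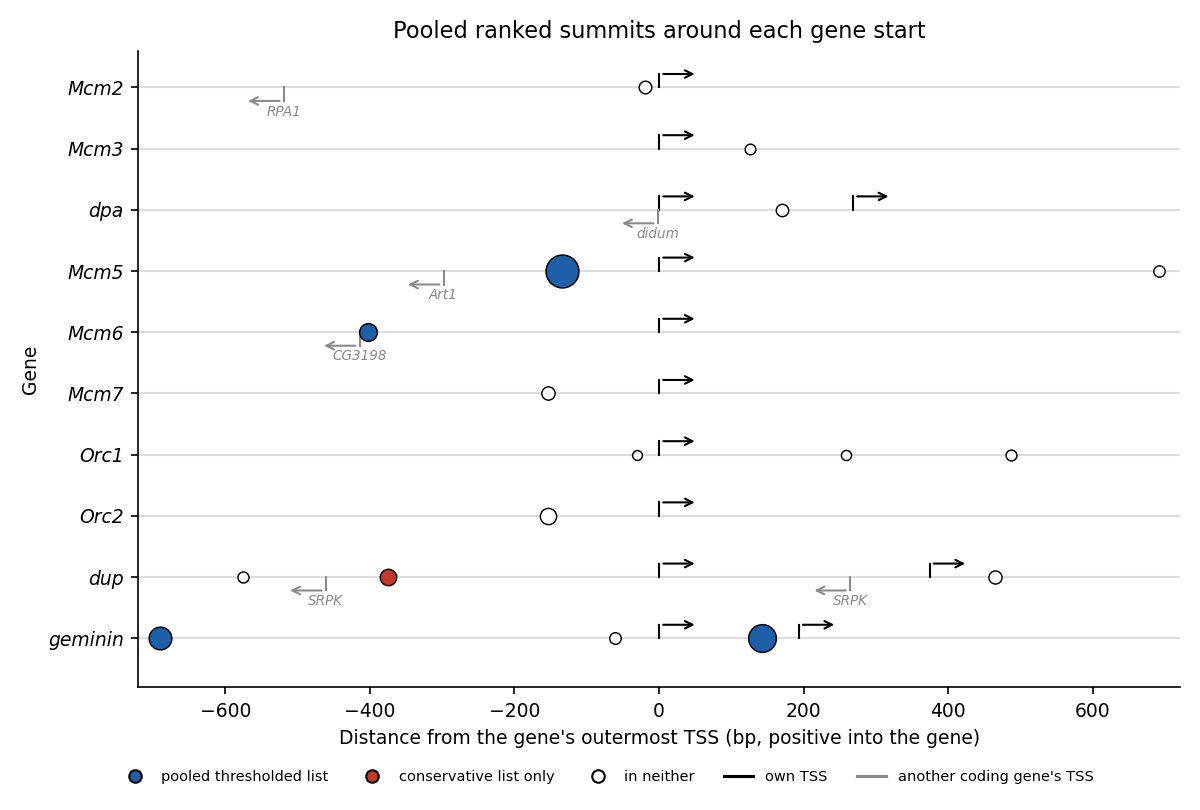
Summits of the pooled ranked list (circles, area growing with the authors' signal) against distance from the outermost TSS of each gene in bp, with black arrows for the gene's own TSSs and grey arrows for TSSs of other coding genes. The Mcm5 summit lies between the TSSs of Art1 and Mcm5, the Mcm6 summit sits 11 bp from the TSS of CG3198, and the strong geminin summit lies between the gene's own pair of TSSs.

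Mcm5, a subunit of the helicase ring, had the strongest peak of the set (3R, 10788213 to 10788561, signal 216, rank 99 of 2067). Its summit was intergenic, 134 bp upstream of the Mcm5 TSS and 164 bp upstream of the TSS of Art1, an arginine methyltransferase gene that is read in the other direction. The Mcm5 TSS was thus the nearer one, although the peak cannot be given to 1 gene alone. In its own thresholded list replicate 1 gave a signal of 85.1 at rank 326 of 1681, and replicate 2 gave 119.9 at rank 36 of 1347. The 2 replicates therefore placed Mcm5 differently, and in replicate 2 it stood far nearer to the top. Among bound protein-coding genes, each taken by its strongest peak, 93.9% had a lower pooled signal than Mcm5. The peaks next to it in the pooled list were at CG5004 (216.5) and at EloB with Srp14 (215.9), which differ from it by less than 0.01 on the log2 scale.

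Geminin had the only bound promoter among the 10 genes that no other gene shared within 500 bp. Its peak (2R, 6656294 to 6656587, signal 150.2, rank 304) had its summit in the 5' UTR of the longer transcript, 50 bp upstream of the inner of the 2 annotated TSSs. Replicate 1 gave 85.4 at rank 323 and replicate 2 gave 57.3 at rank 406, with summits 50 and 45 bp upstream of that same TSS. The position thus moved by a few bases between the replicates. In replicate 2 a further, weaker peak at the outer TSS also passed (signal 11.7, rank 1259). The order of Mcm5 and geminin was not the same in both replicates: in replicate 1 geminin was above Mcm5 by a narrow margin and in replicate 2 it was far below it. The higher pooled signal of Mcm5 was therefore not repeated in each replicate. A separate pooled peak lay 690 bp from the outer geminin TSS (signal 96.8, rank 756), 42 bp upstream of a TSS of sced, a gene needed for the actin furrows of the syncytial embryo.

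Mcm6, another subunit of the ring, was the weakest bound gene. Its peak (X, 6673782 to 6674185, signal 54.8, rank 1446) had an intergenic summit 403 bp upstream of the Mcm6 TSS and 11 bp upstream of the TSS of CG3198, which is read in the other direction. Replicate 1 passed with a signal of 31.2 at rank 1411. Replicate 2 did not pass: its peak there had a signal of 22.1 at rank 1766 of the 47717 peaks in its ranked list. Mcm6 is thus bound by the 500 bp rule, although the peak sits at its neighbour. It was lost when only the gene with the nearest TSS was counted, which left Mcm5 and geminin, 2 of 10, beside 12.5% of all protein-coding genes. Its pooled signal exceeded that of 17.7% of bound protein-coding genes, and its neighbours in rank were sqz (54.9) and msl-3 with BBS1 (54.8).

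**Figure D2:**
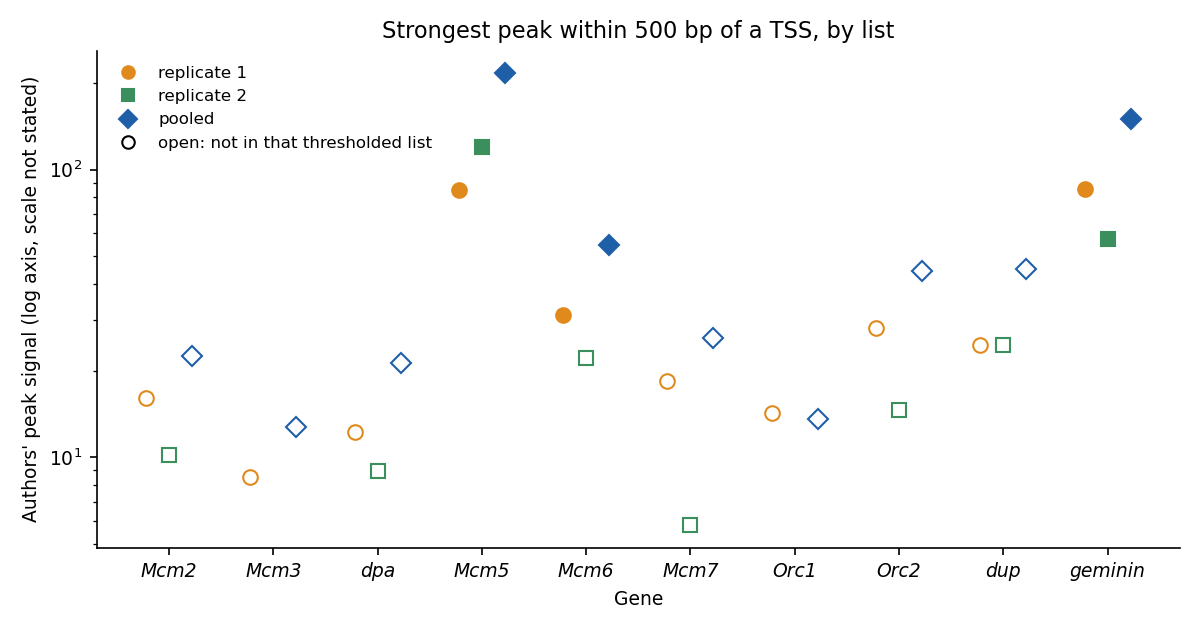
Signal of the strongest peak within 500 bp of a TSS of each gene (log axis) in the ranked lists of replicate 1, replicate 2 and the pooled data, filled where that peak is in the thresholded list of the same data. Mcm5 and geminin are filled in all 3, Mcm6 in replicate 1 and the pooled data, and the other genes are open; Mcm3 and Orc1 have no point for replicate 2.

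Each replicate's own list gave nearly the same genes. In replicate 1 Mcm5, Mcm6 and geminin were bound, 3 of 10, beside 14.9% of all protein-coding genes. In replicate 2 Mcm5 and geminin were bound, 2 of 10, beside 12.2%. The authors' conservative pooled list of 2017 peaks held these 3 genes and dup as well, 4 of 10, beside 16.8%. The labels call the samples biological replicates, and no p was computed for any count.

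The dup gene, which encodes the loader, was called by 1 of the pooled lists and not by the other. Its strongest peak (2R, 15381161 to 15381564, signal 45.3) lay 375 bp upstream of the outer dup TSS in an intron of SRPK, a kinase gene of splicing factors, and 86 bp from an SRPK TSS, which was the nearer one. Every thresholded peak had an irreproducible discovery rate (IDR), an estimate of how often peaks so ranked fail to recur, of 0.01 or less, which is 2 or more on a −log10 scale. The same dup peak had a −log10 IDR of 2.48 in the ranked list behind the conservative set and 0.074 in the ranked list behind the pooled set. Both replicates had a peak there that did not pass: 24.62 at rank 2047 of 40775 in replicate 1 and 24.57 at rank 1550 of 47717 in replicate 2. Their summits lay 266 and 391 bp upstream of the outer dup TSS. A weaker ranked peak (signal 24.9) lay 90 bp inside dup from the inner TSS.

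Orc2, which encodes a subunit of the origin recognition complex, was the nearest to the threshold from below in the pooled list. Its peak (3R, 13964529 to 13964932, signal 44.4, rank 1854 of 47947) was intergenic and 154 bp upstream of the Orc2 TSS, with no other gene start within 500 bp. Its −log10 IDR was 1.69 in the pooled ranked list, against 2.46 for Mcm6, the bound member nearest to the threshold. In the ranked list of the conservative set the Orc2 value was 0.060, so the order of dup and Orc2 by IDR was reversed between the lists, and Orc2 passed in neither. Replicate 1 gave 28.1 at rank 1752 and replicate 2 gave 14.6 at rank 4415, with summits 137 and 276 bp upstream. The Orc2 signal was still higher than that of 407 of the peaks in the pooled thresholded list. Of 333 ranked promoter peaks with a signal from 40 to 50, the band that holds Orc2 and dup, 186 (55.9%) were in that list.

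**Figure D3:**
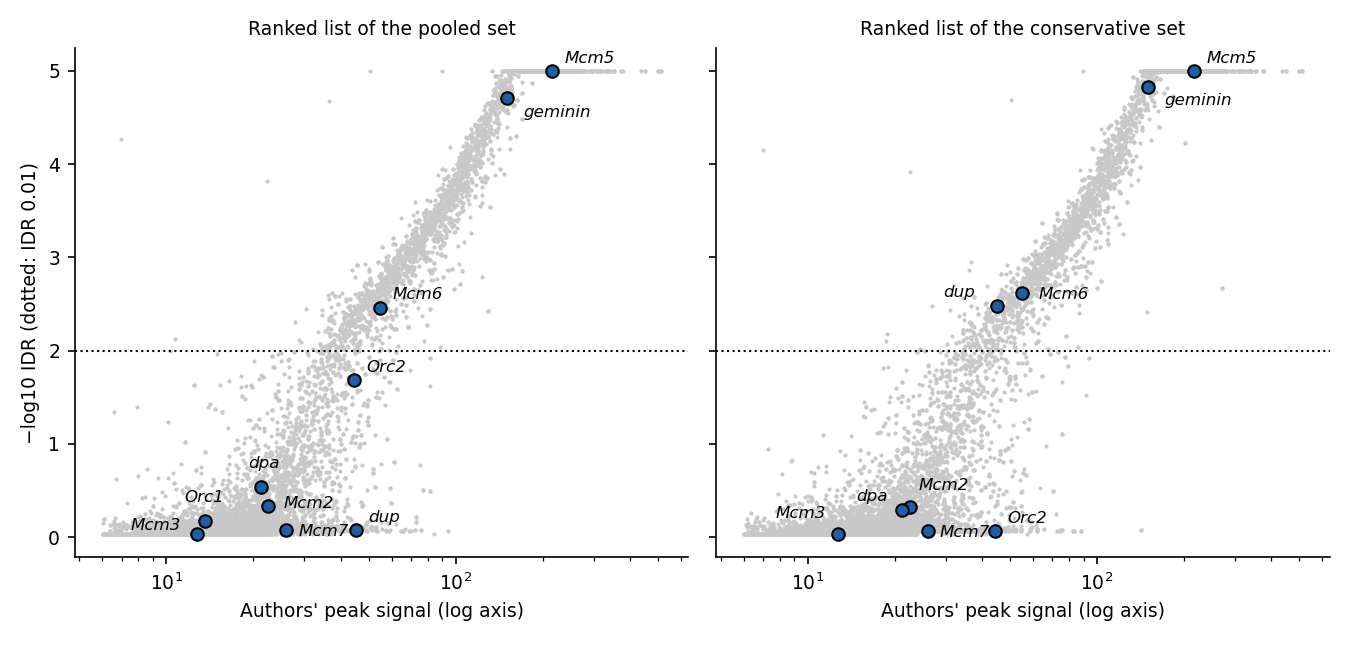
Authors' signal (log axis) against −log10 IDR of the strongest peak within 500 bp of a TSS, for all protein-coding genes with one (grey) and the licensing genes (blue), in the ranked list of the pooled set (left) and of the conservative set (right). The dotted line is an IDR of 0.01; dup lies under it at 0.074 on the left and over it at 2.48 on the right, while Orc2 goes from 1.69 to 0.060.

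The remaining genes had weak peaks. Each of the 10 genes had at least 1 peak in the pooled ranked list, which marks 60.9% of all protein-coding genes, so presence there says little. Mcm7 had a signal of 25.95 in the pooled ranked list (3L, 8891240 to 8891643), with an intergenic summit 154 bp upstream of its TSS. Mcm2 had 22.5 (3R, 8264748 to 8265151), 20 bp upstream, and dpa, the Mcm4 gene of the fly, had 21.2 (2R, 7499773 to 7500176), 98 bp upstream of its inner TSS. These are helicase genes with a peak near the start that did not pass. Orc1 had 13.6 (2R, 7525027 to 7525430), in a coding exon 487 bp inside the gene, with weaker summits of 10.3 and 9.16 nearer the TSS. Mcm3 had 12.8 (X, 5323779 to 5324182), in its 5' UTR 126 bp from the TSS. The median over the whole ranked list was 12.6, so the last 2 were close to an ordinary ranked peak.

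The replicates repeated the place of some of these weak peaks and not of others. At Mcm7 replicate 1 had a signal of 18.4 at rank 3325, 110 bp upstream, and replicate 2 had 5.80 at rank 34120, 100 bp inside the gene. At Mcm2 replicate 1 had 16.1 at rank 4521, with the summit 13 bp upstream, and replicate 2 had 10.1 at rank 13143, with the summit 420 bp upstream and nearer to RPA1. A further replicate 2 peak, nearly as high within that list (9.63, rank 14987), had its summit at the Mcm2 TSS itself, so a weak peak at the Mcm2 start was in both replicates. At dpa the replicates had 12.2 and 8.95, 85 and 79 bp upstream of the inner TSS, so there the place was shared and the level low. Orc1 and Mcm3 had no peak within 500 bp in the ranked list of replicate 2. In replicate 1 Orc1 had 14.2, 447 bp inside the gene, and Mcm3 had 8.50. Mcm7 was the highest of Mcm7, Mcm2 and dpa in the pooled list and in replicate 1 and the lowest in replicate 2, while Mcm2 stood above dpa in all 3 lists.

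Some unbound genes lay close to bound neighbours. The summit nearest to the Mcm3 TSS in the pooled thresholded list was 1175 bp away, at Rnp4F, an RNA-binding protein gene (signal 74.3, rank 1080). For Mcm2 the nearest was 5014 bp away at CG9630 (signal 75.0), for Orc1 5194 bp away at Drat, and for dpa 12557 bp away at az2. Mcm7, Orc2 and dup had none within 40 kb, the distances being 83279, 42853 and 162050 bp. The start of RPA1, the gene of the large subunit of the single-stranded DNA-binding protein RPA, was 499 bp from the ranked summit at Mcm2 and is read in the other direction.

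Gene arrangement varied among the members. A coding gene with its start within 500 bp upstream and read in the other direction stood by Mcm5 (Art1), Mcm6 (CG3198), dpa (didum) and dup (SRPK). Of these 4 genes 2 were bound, beside 37.1% of all coding genes with such a neighbour. Of the other 6, geminin alone was bound, beside 9.88% of coding genes without one. Both strong peaks thus came from different layouts, a shared promoter at Mcm5 and an unshared one at geminin.

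The full DRE was not at the summits of the bound members. The palindrome TATCGATA was within 100 bp of none of the 3 bound summits, beside 32.0% of all 2066 pooled summits on the arms. The shorter TATCGAT was at 2 of them, Mcm5 and Mcm6, beside 54.6%. At Mcm6 its centre was 29 bp from the summit and at Mcm5 it was 92 bp away, near the edge of the window. At geminin only the letters CGATA, held by every TATCGAT and known as the core for the insulator protein BEAF-32, were present, 7 bp from the summit. CGATA was at all 3 bound summits, but it is short and was at 81.3% of all pooled summits.

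Among the unbound members Orc2 alone had the full palindrome. Its copy was centred 43.5 bp from the summit and a further copy began 18 bases after the TSS. In windows from 250 bases before to 50 after the outermost gene start, TATCGATA was in 1 of the 7 unbound members and in 4.04% of all unbound coding genes, against 34.7% of bound ones. It was in 9.37% of the windows of all coding genes. A match describes the letters and not a bound factor.

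Other promoter letters were at few of the members' summits, where each gene was taken by its strongest pooled ranked peak and both strands were searched. The shares beside them are over all summits of the pooled thresholded list, which holds the peaks of only 3 of the 10 members. TTTGGCGC, a form of the E2F site, was at dpa alone (2.13% of pooled summits). CAGCNCTG was at Mcm2 and dpa (7.89%) and CATCNCTA at dup (18.0%), both being forms of motif 7 of fly core promoters. GGTCACACT, the core of the M1BP site, was at dup (5.28%). TTTCGCGC, CAGCNCTA, CATCNCTG, the Zelda site CAGGTAG and the E-box CACGTG were at none of the 10 summits. The shares over pooled summits were 0.871%, 6.68%, 4.79%, 0.774% and 3.44% in that order. In the promoter windows CATCNCTA was in 4 of the 10, Mcm5, Mcm7, Orc1 and geminin, beside 6.43% of all coding windows. Each other form of motif 7 was in the window of at most 1 member. GC content within 100 bp of the summit ran from 20.9% at Mcm7 to 59.7% at Orc1, and the bound members lay between 32.3% and 37.3%, near the median of 37.8% over pooled summits.

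The other genes of origin recognition, helicase activation and their control were bound at 10 of 20, where the share of all coding genes would give 3.47. They were listed from general knowledge of the pathway with results of these data already known. Of these 20, 13 had a divergent coding neighbour and 8 of the 13 were bound, beside 37.1% of all coding genes with one. Of the other 7, 2 were bound, beside 9.88%. With the nearest TSS alone 6 of 20 were bound, beside 12.5% of all coding genes, so 4 of the 10 rest on a peak nearer to another gene's start.

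Of the 4 further origin recognition genes 2 were bound, and so were both kinase genes, beside 17.3% of all coding genes. All of these bound genes have a divergent coding neighbour, and 37.1% of all coding genes with one were bound. Orc5 had a signal of 137.0 in the pooled list, with 82.0 in replicate 1 and 56.7 in replicate 2. Its promoter was shared with Arpc1, an actin nucleation gene, whose TSS was nearer to the pooled summit (47 against 49 bp). In replicate 2 the Orc5 TSS was the nearer one (30 against 66 bp). Orc3 had 46.0, shared with FLASH, a gene of histone pre-mRNA processing, whose TSS was nearer at 30 bp, and with CG34315. Orc4 and Orc6 were not bound, with ranked peaks of 23.1 and 54.97, and Orc6 was in the conservative list. The gene of the helicase-activating kinase, Cdc7, had 57.2, and chif, the gene of its partner subunit, had 146.7. The chif peak passed in both replicates. It had 73.6 at rank 445 of 1681 in replicate 1 and 76.2 at rank 205 of 1347 in replicate 2. The chif TSS lay 94 bp from the pooled summit, together with that of Hyls1, which is read in the same direction. The divergent neighbour, CG4455, had its TSS 212 bp away. A further chif peak in the pooled thresholded list (signal 36.7) lay 5 bp from a TSS of CG4455.

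Helicase activation was bound at 4 of 8 genes, beside 17.3% of all coding genes and 37.1% of those with a divergent coding neighbour. Such a neighbour stood by the bound Psf1, Psf3 and mus101 and by the unbound Cdc45, Mcm10 and Sld5. At Psf3, however, the bound summit lay 6 bp from the inner TSS, with no other gene start within 500 bp. The Psf3 peak at the outer TSS, beside the divergent neighbour flw, did not pass (38.3 in the ranked list). Psf1, a subunit of the GINS complex that completes the active helicase, had 131.7, with the summit in the 5' UTR of Sac1, whose TSS was nearer at 88 bp, and it passed in both replicates. The other GINS genes were lower, with 46.5 at Psf2 and 43.2 at Psf3, neither of which passed in either replicate's own list, and Sld5 was not bound (34.6 in the ranked list). The scaffold gene mus101 had 109.5, with 61.0 and 51.9 in the replicates. Its promoter was shared with Mrgn1, whose TSS was nearer to the pooled summit (113 against 156 bp). Cdc45, Mcm10 and RecQ4 were not bound, and RecQ4 had no pooled ranked peak within 500 bp.

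Among the rest, Cul4 had the strongest peak of the list. It encodes the scaffold of the ubiquitin ligase that removes the loader in S phase, and it had 182.9, with 130.4 in replicate 1 and 52.0 in replicate 2, at a promoter shared with udd. The gene of that ligase's substrate receptor, l(2)dtl, was not bound (25.8 in the ranked list). The Mcm relative rec, which acts in meiotic recombination, had 42.3. Cdc6, Ctf4 and Rif1 were not bound in the pooled list, and Cdc6 had no pooled ranked peak within 500 bp. The conservative list held 10 of the 20 as well, beside 16.8% of all coding genes, with Orc6 and Rif1 gained and Psf3 and rec lost. In the replicates' own lists Cdc7 and rec passed in replicate 1 alone and Orc3 in replicate 2 alone.

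The full DRE was common where these genes were bound. TATCGATA was in the promoter window of 8 of the 10 bound genes of this list, Orc3, Orc5, Psf1, Psf3, mus101, chif, rec and Cul4, and in 1 of the 10 unbound ones, Sld5. The shares over all coding genes were 34.7% of bound and 4.04% of unbound ones. Within 100 bp of the summit TATCGATA was at 6 of the 10 bound genes, beside 32.0% of all pooled summits. Psf1 and chif had it in the window but not at the summit. Among the licensing members it was in the window of none of the 3 bound genes and in that of the unbound Orc2. With 3 bound members no difference between the lists was tested.

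**Figure D4:**
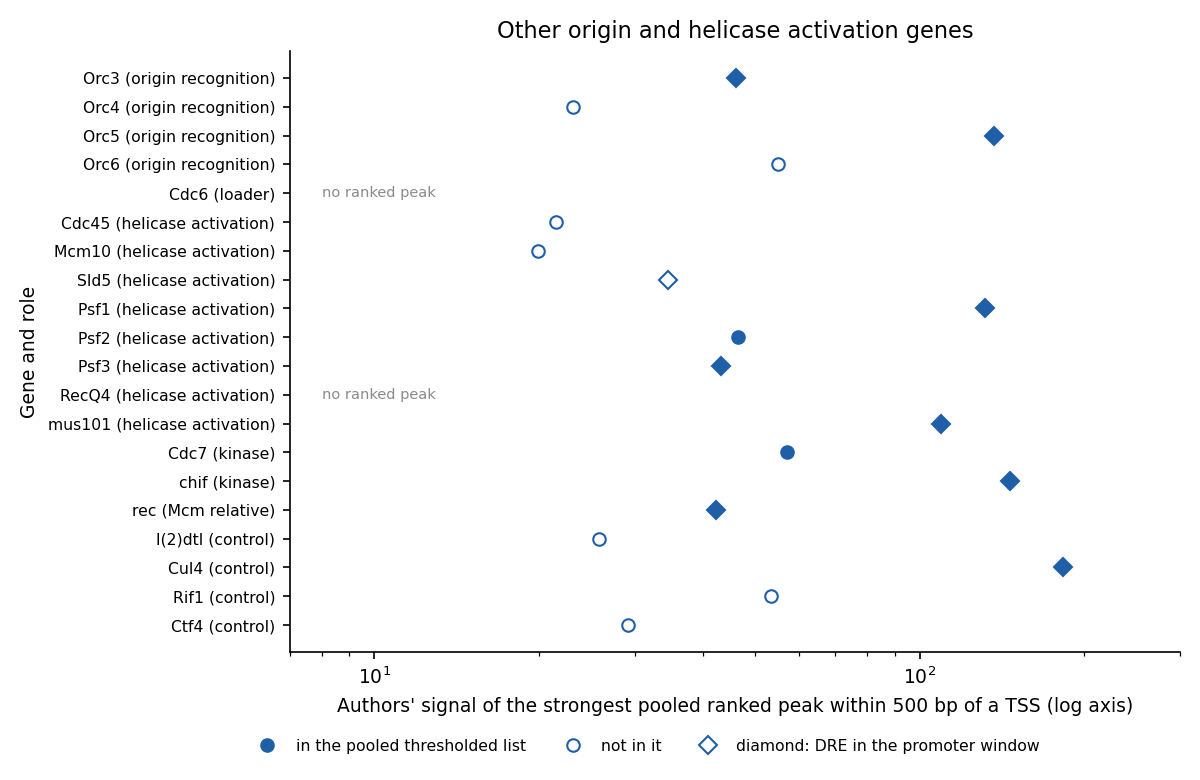
Authors' signal of the strongest pooled ranked peak within 500 bp of a TSS (log axis) for 18 of the 20 other genes of the pathway, with their role; Cdc6 and RecQ4 had no such peak. Filled symbols are bound in the pooled thresholded list and diamonds have TATCGATA in the promoter window; Cul4 is highest at 182.9, and 8 of the 10 filled symbols are diamonds.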

How the data were processed

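The authors deposited peak lists on dm6, as the labels and a text file with them state. Each peak carried a deposited signal of unstated scale and a deposited score that follows from the IDR and is capped at 1000. The ranked lists also give the −log10 IDR, from the authors. For aligner, peak caller and depth nothing is stated, and no counting interval was computed. Each ranked list has 8 columns of per-replicate values that carry no sample name and were not used.

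Genes came from Ensembl release 115 (BDGP 6.54, dm6 coordinates) and sequence from the RefSeq copy of Release 6. TSSs of all annotated transcripts were used, without transposable elements. The strongest summit within 500 bp represents a gene, and ranks are by signal within a list. Thresholded lists carry no IDR, so it was read from the ranked list in which every peak of that list stands, at the same coordinates, at an IDR of 0.01 or less. Motifs were searched on both strands. Processing used Python 3.11.15, pandas 2.3.3 and numpy 2.4.6. The search for bound genes was tested on simulated data with planted summits.

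The members, the list of other pathway genes and the motifs were chosen with earlier results of these data known. No test was run, because the design has 1 group and the genes were chosen by name. The text names all members, the genes that share their peaks, the other listed pathway genes and the peaks next in rank. Alternatives were the TSS distance, the peak list, the threshold, the nearest TSS alone, each replicate's list and peaks found in both. One more, an IDR of 0.05, was chosen after seeing the data.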

Additional observations from a re-analysis of the deposited data

How the results depend on the processing

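Mcm5 and geminin were bound under all 11 alternatives. Mcm6 was lost under 7 of them: the 200 bp distance, an IDR of 0.001, signals at or above the median, the nearest TSS alone, replicate 2's list, and peaks in both replicates' lists at either overlap. The count of bound members ran from 2 to 4, and from 2 to 3 with the list of 1 replicate. The share of all coding genes ran from 10.6% to 20.4% over the alternatives. The conservative list added dup, beside 16.8% of all coding genes. An IDR of 0.05 added Orc2, beside 20.4%. Among the 20 other pathway genes the bound count fell from 10 to 5 at an IDR of 0.001, at signals at or above the median and in both replicates' lists at 50% or 1 bp overlap. The share of all coding genes fell as well, from 17.3% to 11.8%, 10.6%, 10.6% and 10.6% in that order. At an IDR of 0.05 the bound count rose to 13 of 20, with Cdc45, Sld5 and Rif1 added, beside 20.4% of all coding genes. The count was 6 with the nearest TSS alone, beside 12.5% of all coding genes. It was 7 with replicate 1's list, beside 14.9%, and 6 with replicate 2's list, beside 12.2%. TATCGAT was at 1 bound member summit within 50 bp and in 1 bound promoter window, in place of 2. Signals in the list of 1 replicate were 85.1 to 119.9 at Mcm5, 57.3 to 85.4 at geminin and 31.2 at Mcm6, which only replicate 1's list holds; their scale may differ from that of the pooled list. Read depth is unknown, so absence from a list does not show that a gene is unbound. No paired analysis was possible because the design has 1 group.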

Other observations

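TTTGGCGC, a form of the site of E2F, the factor known for switching on genes of DNA synthesis, was in the promoter windows of Mcm6 and Orc1 among the 10 licensing genes. It was in 7 of the 20 other pathway genes, beside 2.38% of all coding promoter windows. Of these 7, Orc3, Orc5, Psf1 and mus101 were bound and Orc4, Sld5 and Ctf4 were not. Over all coding genes the letters were in 2.94% of bound and 2.26% of unbound promoter windows.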
